A study of Mus musculus with 21 samples.

Results

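The genes described here are 10 members of the interleukin-1 (IL-1) and interleukin-6 (IL-6) cytokine families: the ligands Il1b, Il33, Il6, Il11 and Lif, the receptors Il1r1, Il1rl1 and Osmr, the decoy receptor Il1r2 and the receptor antagonist Il1rn. They were chosen by symbol from the count files, which hold 53801 gene IDs, and all 10 were present in all 21 libraries. The study asked what loss or inhibition of fibroblast activation protein (Fap, a cell-surface serine protease of activated fibroblasts) does to the injured mouse heart. Border-zone ventricle, the tissue next to the infarct, was taken at day 7 from wild-type hearts after a sham operation (n = 3), wild-type hearts after myocardial infarction (MI, n = 4), wild-type MI hearts given FAPI, read here as a Fap inhibitor (n = 4), and FapKO hearts after MI (n = 4). The sources used here do not name the compound, its dose or whether the knockout was constitutive. A separate experiment held mouse ventricular fibroblasts for 7 days in a 5% GelMA gel, a photo-crosslinked gelatin matrix. They were cultured alone (n = 3) or with heart and lung endothelial cells (n = 3). The co-cultured fibroblasts were sorted as CD45-, CD31- and Pdgfra+ cells, whereas RNA of the fibroblasts grown alone was taken with no sorting step. The culture partner and the sort therefore cannot be told apart in that comparison.

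IL-1β is made as an inactive precursor that caspase-1 cuts in the inflammasome, and it signals through Il1r1 with the co-receptor Il1rap to MyD88 and NF-kB. Il1rn encodes a secreted antagonist that occupies Il1r1 without signalling, and Il1r2 encodes a receptor that binds IL-1β but lacks a signalling domain. IL-33 is a nuclear protein released by damaged cells and signals through ST2, the product of Il1rl1. IL-6, IL-11 and LIF bind their own receptor chains and signal through the shared chain gp130 (Il6st) to JAK kinases and STAT3, and Osmr is the receptor chain for oncostatin M (Osm). In the infarcted heart IL-1β is known as an early inflammatory signal from myeloid cells, and IL-6 and IL-11 are known products of cardiac fibroblasts.

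Library totals were 18474138 to 37287355 counts in the hearts, 4735337 to 6346015 in the co-cultured fibroblasts and 12871240 to 15650221 in the fibroblasts cultured alone. Levels are given as CPM, the count scaled by the library total times its TMM factor. That factor corrects for composition and was 0.626 to 0.697 in sham hearts, 1.24 to 1.55 in MI, 0.929 to 1.14 in FAPI and 0.888 to 0.986 in FapKO hearts. Fap itself, the check of the labels, was at 1.79 to 2.36 CPM in the 4 FapKO hearts, against 9.40 to 13.2 CPM in MI, 6.47 to 10.4 CPM in FAPI and 2.71 to 3.86 CPM in sham hearts. All 15 cardiomyocyte markers were detected in every heart. Their summed level was 99550 to 114700 CPM in sham hearts, 12050 to 35970 in MI, 38950 to 69930 in FAPI and 57610 to 69470 in FapKO hearts. The 12 macrophage markers summed to 2225 to 2455 CPM in sham hearts, 7891 to 11130 in MI, 5192 to 9149 in FAPI and 3152 to 5956 in FapKO hearts. The 8 fibroblast markers summed to 4245 to 4571 CPM in sham hearts, 11620 to 16670 in MI, 6196 to 10160 in FAPI and 6381 to 7118 in FapKO hearts. These sums moved with the groups, and in bulk tissue fewer cells of a type and less RNA per cell cannot be told apart. Whether each library came from its own animal is not in the labels. The p-values describe the spread between libraries, which may be partly technical.

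The sequences just upstream of the transcription start are shown for the 5 ligand genes, because the ligands are the signals themselves. Where a gene has several windows, the one with the match nearest its start is shown. All 10 genes matched a RefSeq promoter entry on GRCm38.p6, with 16 start windows in all, and the 250 bases before each start were searched on both strands for 5 motifs: AP-1 (TGANTCA), STAT (TTCNNNGAA), CRE (TGACGTCA), the TATA box (TATAAA) and NF-kB. Capitals mark the matches, and bases inside annotated exons were left out. The Il6 window (chr5:30012864-30013113, plus strand) lies directly before the gene, the Lif window (chr11:4257318-4257556, plus strand) ends 11 bases before the RefSeq start, the Il11 window (chr7:4778142-4778391, minus strand) lies within the gene's span between exons and before its second RefSeq start, the Il1b window (chr2:129371140-129371389, minus strand) lies directly before the gene, and the Il33 window (chr19:29945540-29945789, plus strand) lies within the gene's span, before its second RefSeq start.
Il6: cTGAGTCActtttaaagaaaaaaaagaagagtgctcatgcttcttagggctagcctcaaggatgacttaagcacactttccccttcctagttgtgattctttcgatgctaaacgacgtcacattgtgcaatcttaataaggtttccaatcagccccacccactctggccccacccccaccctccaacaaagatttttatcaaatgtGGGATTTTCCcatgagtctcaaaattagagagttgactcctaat
Lif: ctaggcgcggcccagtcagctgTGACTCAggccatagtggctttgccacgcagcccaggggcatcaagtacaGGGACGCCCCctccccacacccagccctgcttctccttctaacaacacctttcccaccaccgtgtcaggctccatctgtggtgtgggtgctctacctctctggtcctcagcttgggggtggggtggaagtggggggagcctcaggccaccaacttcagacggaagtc
Il11: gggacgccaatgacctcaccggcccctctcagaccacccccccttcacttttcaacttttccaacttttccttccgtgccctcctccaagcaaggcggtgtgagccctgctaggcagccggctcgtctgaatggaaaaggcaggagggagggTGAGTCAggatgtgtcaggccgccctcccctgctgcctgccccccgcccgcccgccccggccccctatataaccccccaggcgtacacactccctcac
Il1b: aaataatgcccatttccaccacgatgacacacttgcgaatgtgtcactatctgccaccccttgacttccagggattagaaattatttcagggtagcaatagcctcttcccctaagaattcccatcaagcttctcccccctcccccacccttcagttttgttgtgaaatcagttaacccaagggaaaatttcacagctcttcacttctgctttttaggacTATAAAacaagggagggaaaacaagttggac
Il33: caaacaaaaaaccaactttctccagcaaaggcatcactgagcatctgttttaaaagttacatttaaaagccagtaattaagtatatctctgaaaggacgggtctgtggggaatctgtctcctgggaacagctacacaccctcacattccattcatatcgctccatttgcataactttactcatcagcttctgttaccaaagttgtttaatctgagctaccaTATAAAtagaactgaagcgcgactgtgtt
The Il6 window held an AP-1 match that began 249 bases before the start and an NF-kB match from 44 to 35 bases before it. The Lif window held the same pair of motifs, AP-1 beginning 228 and NF-kB 178 bases before the start. The Il11 window held an AP-1 match that began 98 bases before the start, and the window before the first Il11 start, not shown, held no match. The Il1b window held a TATA box that began 31 bases before the start, and the Il33 window one that began 29 bases before it. The first Il33 window, not shown, held a TATA match that began 203 bases before its start. Among all 32851 promoter windows of this length, 6.75% held the AP-1 motif, 7.25% the NF-kB motif, 7.02% the STAT motif, 1.55% the CRE and 12.4% the TATA box. A match describes the letters in the window and is not evidence of a bound factor.

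After MI, 8 of the 10 genes were higher than in sham hearts: Il1b, Il1r1, Il1r2, Il1rn, Il33, Il6, Il11 and Osmr (edgeR quasi-likelihood test, Benjamini-Hochberg adjusted p under 0.05 over all genes). Of all 17064 genes tested, 37.1% were called higher and 32% lower in that comparison, 69.1% in all. The MI and sham hearts did not overlap for these 8 genes, and 67.5% of all genes did not overlap. The 10 genes had a median log2 fold change of 2.11, beside 0.14 over all genes tested. Lif and Il1rl1 did not pass. With the mean log2 CPM of the 15 cardiomyocyte markers added to the model as a covariate, 3 of the 10 genes passed, Il1b, Il1r2 and Osmr. Of all 17064 genes, 573 passed. Among the genes of the 10 that lost the call the log2 fold change was 3.28 for Il1rn (2.75 without the covariate), 3.14 for Il6 (2.93), 2.16 for Il11 (2.16), 1.75 for Il33 (1.82) and 1.40 for Il1r1 (2.05). The summed marker levels of the MI hearts lay below those of every other heart group without overlap. In comparisons with MI hearts the covariate and the group can therefore hardly be told apart, and a lost or kept call cannot decide between them. Over all settings the log2 fold change after MI was 1.52 to 7.85 for Il1b and 1.94 to 7.76 for Il1r2. Of the MI hearts, replicate 3 had the highest cardiomyocyte sum, 35970 CPM, and the highest levels of both genes.

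In FAPI hearts, Il1r1 and Il1r2 were lower than in MI hearts and the other 8 genes did not pass, while 11.9% of all genes were called lower and 17.9% higher, 29.8% in all (edgeR). The groups did not overlap for 1 of the 10, Il1r1, and 26.1% of all genes did not overlap. No gene of the 10 passed without FAPI replicate 4, and 1 passed without MI replicate 3 or without FAPI replicate 2. The 10 log2 fold changes all had a minus sign, with a median of -0.44 beside -0.03 over all genes. In FapKO hearts, 8 of the 10 genes were lower than in MI hearts, every one that had been higher after MI, while 26% of all genes were called lower and 25% higher, 51% in all. The median log2 fold change of the 10 genes was -0.89, beside -0.08 over all genes. The MI and FapKO hearts did not overlap for 5 of the 10 (45.4% of all genes did not overlap). With the cardiomyocyte covariate, which here too can hardly be told apart from the group, 2 of the 10 passed, Il1b and Il1r2. Of all 17064 genes, 90 passed. Over all settings the log2 fold change in FapKO against MI hearts was -5.28 to -0.32 for Il1b and -5.55 to -0.95 for Il1r2. The genes that lost the call were at -2.47 for Il1rn (-2.08 without the covariate), -1.09 for Il11 (-1.10), -0.96 for Il6 (-0.81), -0.92 for Il33 (-0.97), -0.63 for Osmr (-0.68) and -0.10 for Il1r1 (-0.58). FAPI and FapKO hearts were compared with the same MI hearts. Set directly against each other, Il1rn and Osmr were higher in FAPI than in FapKO hearts and 8 did not pass, while 7.05% of all genes were called higher and 6.12% lower, 13.2% in all (edgeR). The groups did not overlap for 3 genes, Il1rn, Il11 and Osmr, and 18.6% of all genes did not overlap. Without FAPI replicate 3, or without FapKO replicate 1, 2 or 3, 1 of the 10 passed.

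Against sham hearts, 6 genes were still higher in FAPI hearts (Il1r1, Il1rn, Il33, Il6, Il11 and Osmr, with 29.2% of all genes called higher and 26.5% lower, 55.8% in all) and 5 in FapKO hearts (Il1r1, Il33, Il6, Il11 and Osmr, with 19.2% called higher and 20.3% lower, 39.5% in all). FAPI and sham hearts did not overlap for 8 of the 10 genes (57.5% of all genes), and FapKO and sham hearts for 5 (46.8%). The FapKO count was 3 without sham replicate 1, sham replicate 2 or FapKO replicate 4. The group means ran sham, FapKO, FAPI, MI from lowest to highest for 8 of the 10 genes. Lif had the FAPI mean below the FapKO mean, and Il1rl1 had both below the sham mean. Neighbours in that order often did not differ beyond their spread: FAPI and FapKO differed for 2 genes, and FAPI and MI for 2 genes.

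**Figure D1:**
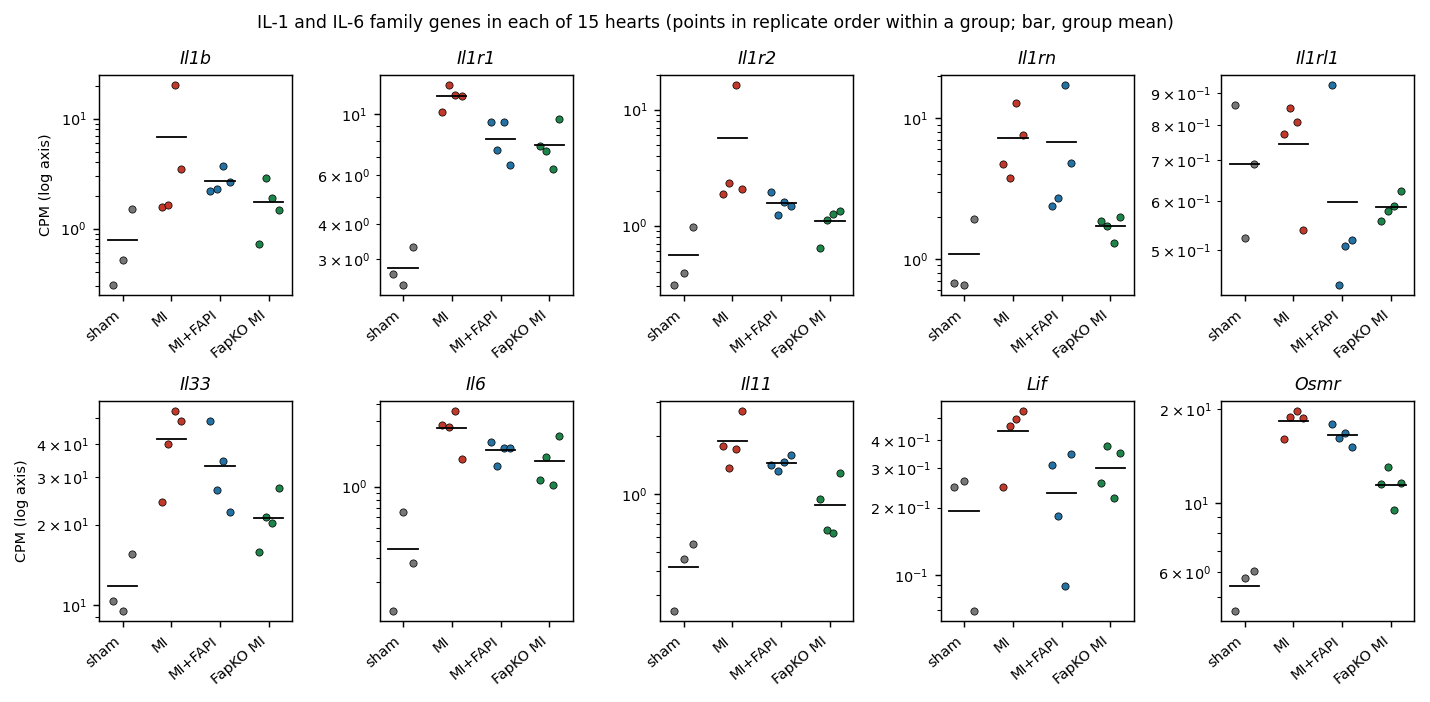
Level of each of the 10 genes in each of the 15 hearts, in CPM on a log axis, with points in replicate order within sham, MI, MI with FAPI and FapKO MI, and a bar at the group mean. Il1r1 and Osmr separate the sham hearts (2.42 to 3.31 and 4.50 to 6.06 CPM) from all infarcted hearts with little scatter, whereas Il1b and Il1r2 have a single MI heart far above the rest (20.4 and 16.4 CPM).

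**Figure D2:**
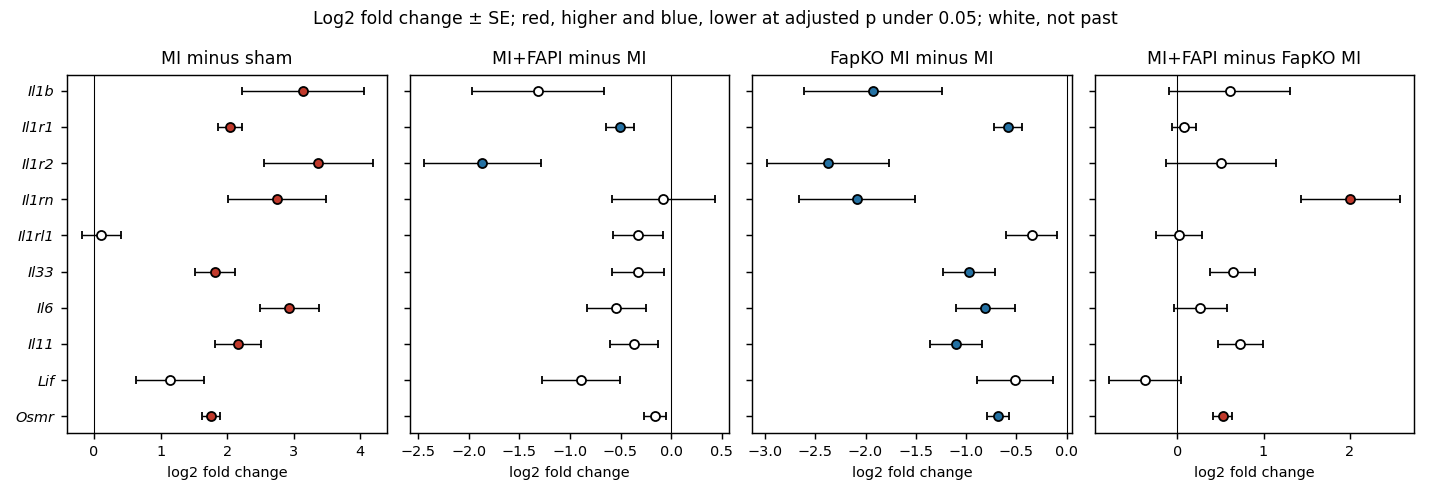
Log2 fold change with its standard error (x axis) for each gene (y axis) in the 4 main heart comparisons, with filled points for genes past an adjusted p of 0.05 in edgeR. All filled points lie to the right for MI minus sham (8 genes) and to the left for FapKO MI minus MI (8 genes), and 2 points are filled in each of the other panels.

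The scaling of the libraries moved the counts of some comparisons. With libraries scaled by total count alone, the all-gene median of the log2 fold change became 1.23 for MI minus sham, -0.44 for FAPI minus MI, -0.63 for FapKO minus MI, 0.77 for FAPI minus sham, 0.59 for FapKO minus sham, 0.16 for FAPI minus FapKO and -0.41 for co-culture minus culture alone. Among called genes, the share that was higher went from 53.7% to 86.1% for MI against sham, from 60.1% to 14.6% for FAPI against MI, from 49.1% to 16.6% for FapKO against MI and from 53.5% to 67.9% for FAPI against FapKO. It went from 52.4% to 86.8% for FAPI against sham, from 48.7% to 91.7% for FapKO against sham and from 50.7% to 32.7% in the fibroblasts. On that scale 9 of the 10 genes, all but Il1rn, passed as lower in FAPI than in MI hearts, where 9933 of all 17064 genes were called. All 10 passed as higher in MI than in sham hearts, including Il1rl1 (1.20, edgeR adjusted p = 0.00278) and Lif (2.21, adjusted p = 0.00052), where 14700 of all genes were called, and all 10 as lower in FapKO than in MI hearts, where 12531 were called. The counts of 2 for FAPI against FapKO and 5 for FapKO against sham stayed as they were. Il1rl1 changed sign against sham on that scale, to 0.47 in FAPI and 0.30 in FapKO hearts on the log2 scale, and no called gene of the 10 changed sign.

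Il1b, on chromosome 2 (ENSMUSG00000027398.13, chr2:129364570-129371139, minus strand, GRCm38), encodes the inflammatory ligand IL-1β. Its level was 0.308, 0.522 and 1.52 CPM in the 3 sham hearts, from 5 to 22 counts each. The 4 MI hearts had 1.58, 1.65, 20.4 and 3.51 CPM, the 4 FAPI hearts 2.21, 2.30, 3.68 and 2.66 CPM, and the 4 FapKO hearts 0.730, 2.90, 1.92 and 1.48 CPM. A single library, MI replicate 3, held most of the Il1b counts of the MI group, and the other 3 MI hearts lay within the range of the FAPI and FapKO hearts. Il1b was higher in MI than in sham hearts by 3.14 on the log2 scale (SE 0.92, edgeR adjusted p = 0.00642), and by 1.52 (adjusted p = 0.0184) without MI replicate 3. The limma-voom test did not call that difference (2.48, adjusted p = 0.0993). In FapKO against MI hearts the log2 fold change was -1.93 (SE 0.68, edgeR adjusted p = 0.0268). It was -0.32 (adjusted p = 0.543) without MI replicate 3, and the call was also lost without FapKO replicate 1 (adjusted p = 0.073), replicate 3 (0.0546) or replicate 4 (0.0596), by limma-voom (0.197) and in a fit of these groups alone (0.0623). In FAPI against MI hearts it was -1.32 (SE 0.65, edgeR adjusted p = 0.139), and 0.30 without MI replicate 3. With MI replicate 3 and FAPI replicate 3 both left out, a choice made after seeing the data, Il1b was higher in FAPI than in sham hearts (1.64, edgeR adjusted p = 0.0167), where with every library it was 1.82 (adjusted p = 0.116). It was also called there with no filter on low counts (0.0101), total-count scaling (0.0184) and the replicate block (0.0231). The cardiomyocyte covariate (0.00392) and a fit of these groups alone (0.00244) called it as well. All of these but the last included MI replicate 3 in the fit. Over all settings the log2 fold change of Il1b in FAPI against sham hearts was 1.42 to 4.21.

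Il1r2 lies on chromosome 1 (ENSMUSG00000026073.13, chr1:40074079-40125231, plus strand) and encodes the decoy receptor that takes up IL-1 without signalling. The sham hearts had 0.308, 0.392 and 0.965 CPM, and the MI hearts 1.89, 2.35, 16.4 and 2.08 CPM. The FAPI hearts had 1.93, 1.24, 1.58 and 1.47 CPM and the FapKO hearts 0.644, 1.12, 1.25 and 1.33 CPM. MI replicate 3 again stood apart, but here the other MI hearts also lay above every sham and every FapKO heart. Il1r2 was higher in MI than in sham hearts by 3.37 on the log2 scale (SE 0.81, edgeR adjusted p = 0.00155), and by 1.94 (adjusted p = 0.000127) without MI replicate 3. It was lower in FapKO than in MI hearts, at -2.38 on the log2 scale (SE 0.61, adjusted p = 0.0038), or -0.95 (adjusted p = 0.00752) without that library. In FAPI hearts it was lower than in MI hearts by edgeR (-1.87, SE 0.57, adjusted p = 0.0224), although the groups overlapped. Without MI replicate 3 that difference was -0.44 (adjusted p = 0.21), and it was not called without FAPI replicate 2 (adjusted p = 0.059) or replicate 4 (0.0597), by limma-voom (0.122) or in a fit of these groups alone (0.0622). DESeq2 gave no adjusted p for Il1r2 in the hearts, with a fold change of -1.85 on the log2 scale in this comparison. With both replicate 3 libraries left out, Il1r2 was higher in FAPI than in sham hearts (1.50, edgeR adjusted p = 0.00342), where with every library it was 1.51 (adjusted p = 0.153). The same 5 other settings called it too (adjusted p 0.00253 to 0.0422). Its log2 fold change there was 1.205 to 3.66 over all settings.

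Il1rn, the antagonist gene on chromosome 2 (ENSMUSG00000026981.15, chr2:24336853-24351494, plus strand), was at 0.678, 0.653 and 1.93 CPM in sham hearts and 4.74, 3.76, 12.9 and 7.59 CPM in MI hearts. FAPI hearts had 2.38, 2.70, 17.3 and 4.79 CPM, and FapKO hearts 1.85, 1.70, 1.29 and 1.99 CPM. The FapKO hearts were the most even group and overlapped only with sham, while FAPI replicate 3 held the highest level of all 15 hearts. Il1rn was higher in MI than in sham hearts by 2.75 on the log2 scale (SE 0.73, edgeR adjusted p = 0.00337) and lower in FapKO than in MI hearts (-2.08, SE 0.57, adjusted p = 0.00642). In FAPI against MI hearts the log2 fold change was -0.08 (SE 0.51, adjusted p = 0.929). Leaving out FAPI replicate 3 gave -1.13 (adjusted p = 0.0376), a call of lower, whereas leaving out MI replicate 3 gave 0.36. The excess of FAPI over FapKO hearts, 2.01 (SE 0.57, edgeR adjusted p = 0.0304), was 0.96 (adjusted p = 0.182) without FAPI replicate 3 and was also not called when any of FapKO replicates 1 to 4 was left out (adjusted p 0.0541 to 0.0955) and by limma-voom (0.114). Against sham, Il1rn was higher in FAPI hearts by 2.67 (SE 0.74, edgeR adjusted p = 0.00568), and by 1.63 (adjusted p = 0.0153) without FAPI replicate 3; limma-voom gave 2.36 (adjusted p = 0.0621).

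MI replicate 3 was also high for some other genes of myeloid inflammation and not for others, named here after their values were seen. Cxcl2, which encodes a neutrophil attractant, was at 17.7 CPM there and at 0.805 to 2.08 CPM in the other MI hearts. Cxcr2, the receptor for that chemokine on neutrophils, was at 8.68 CPM against 0.495 to 1.16 CPM, and Mmp9, a protease stored in neutrophil granules, at 6.19 against 0.402 to 1.06 CPM. Mmp8, another granule protease, was at 6.19 against 1.24 to 2.04 CPM, and Retnlg, a gene of mature neutrophils, at 12.1 against 3.46 to 5.82 CPM. S100a8, a cytosolic calcium-binding protein of neutrophils, was highest in replicate 3 and nearly as high in replicate 2 (75.3, 567, 605 and 148 CPM in replicates 1 to 4), as was S100a9 (16.1, 134, 148 and 35.2 CPM). Ngp, a granule protein gene of immature neutrophils, was highest in replicate 2 (3.13, 55.4, 8.62 and 10.9 CPM), and so were Camp and Ltf. The 11 neutrophil markers summed to 119, 884, 832 and 241 CPM in MI replicates 1 to 4, highest in replicate 2. The sums were 45.1 to 57.2 CPM in sham hearts, 61.7 to 86.6 in FAPI and 62.1 to 81.0 in FapKO hearts. The 12 macrophage markers summed to 11130, 8927, 7891 and 10250 CPM in MI replicates 1 to 4, lowest in replicate 3. Ccr2, a marker of recruited monocytes, was at 20.55, 21.06, 23.55 and 31.02 CPM. The part of these genes in the Il1b and Il1r2 differences was not tested. The cardiomyocyte sum of MI replicate 3, 35970 CPM, was also the highest of the MI hearts, where the others had 12050 to 18240 CPM.

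**Figure D3:**
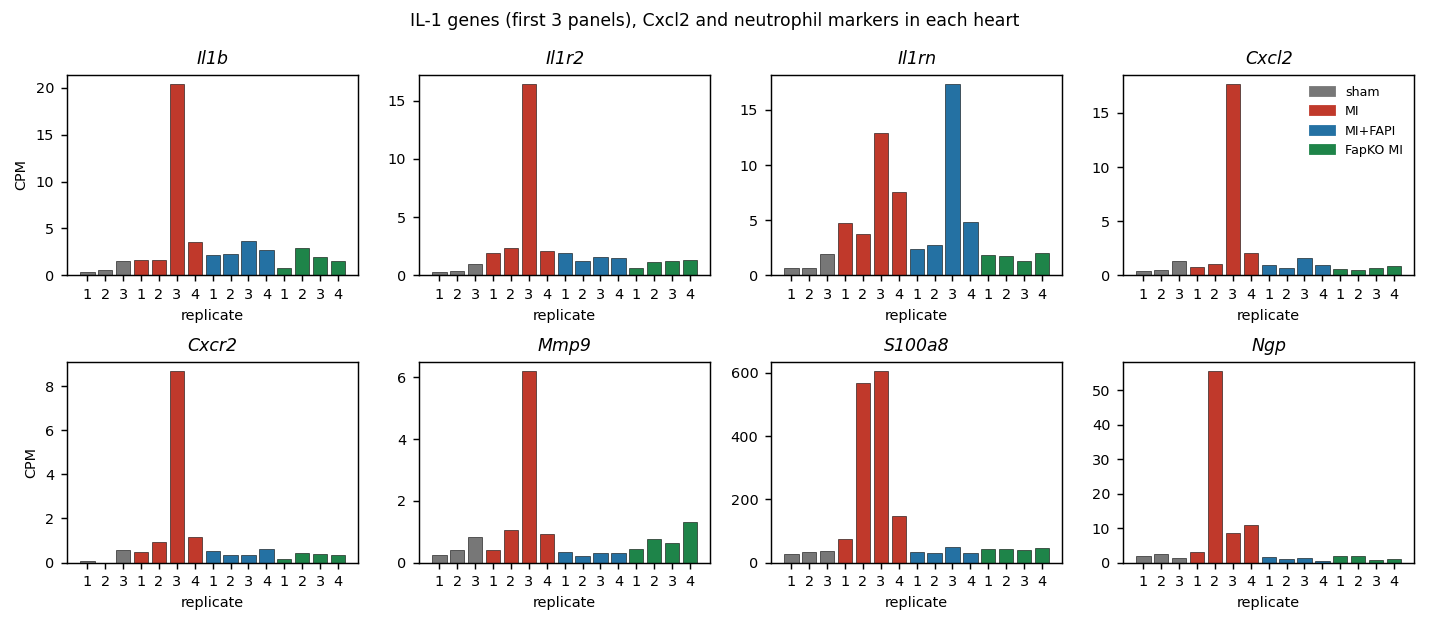
CPM of Il1b, Il1r2, Il1rn, the chemokine gene Cxcl2 and the neutrophil markers Cxcr2, Mmp9, S100a8 and Ngp in each heart, by replicate number within the 4 groups. The bar of MI replicate 3 is the tallest for Il1b (20.4), Il1r2 (16.4), Cxcl2 (17.7), Cxcr2 (8.68), Mmp9 (6.19) and, close above MI replicate 2, S100a8 (605), FAPI replicate 3 is the tallest for Il1rn (17.3), and MI replicate 2 is the tallest for Ngp (55.4).

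Il1r1, the signalling receptor for IL-1 (ENSMUSG00000026072.12, chr1:40225080-40317257, plus strand), varied little within groups. Its level was 2.65, 2.42 and 3.31 CPM in sham hearts, 10.2, 12.7, 11.7 and 11.6 CPM in MI, 9.30, 7.38, 9.33 and 6.55 CPM in FAPI and 7.64, 7.36, 6.30 and 9.55 CPM in FapKO hearts. Every MI heart was above every FAPI and FapKO heart, and every infarcted heart was above every sham heart. The rise after MI was 2.05 on the log2 scale (SE 0.18, edgeR adjusted p = 5.14e-08), a 4.14-fold difference. The level was 1.42-fold lower in FAPI than in MI hearts (-0.51 on the log2 scale, SE 0.14, adjusted p = 0.0131) and 1.50-fold lower in FapKO hearts (-0.58, SE 0.14, adjusted p = 0.00268). Without FAPI replicate 4 the FAPI difference was -0.41 (adjusted p = 0.0524). With the cardiomyocyte covariate the differences were -0.14 (adjusted p = 0.987) and -0.10 (adjusted p = 0.981). FAPI and FapKO hearts differed by 0.08 (SE 0.14, adjusted p = 0.76). Within libraries, counts of the decoy gene per count of the receptor gene Il1r1 were 0.126 to 0.299 in sham hearts, 0.187, 0.185, 1.40 and 0.181 in MI, 0.170 to 0.226 in FAPI and 0.0868 to 0.201 in FapKO hearts. No difference in the log2 ratio passed an exact two-sided permutation test. It was 0.71 for MI against sham (p = 0.629, exact), -0.67 for FAPI against MI (p = 0.714, exact) and -1.13 for FapKO against MI (p = 0.114, exact), with adjusted p of 0.686 to 0.943 over 6 ratio tests, and the smallest p possible for 4 against 4 hearts is 0.0286. After adjustment over the 6 tests a single difference at that smallest p could not pass, so the lack of a call decides nothing for either ratio. Without MI replicate 3 the log2 differences of the decoy ratio were -0.02, 0.06 and -0.40. The ratio of Il1rn to Il1b counts was 0.591 to 4.70 over the 15 hearts, and no difference passed (p = 0.8, 0.943 and 0.371 by the same exact test, adjusted p = 0.943 for each). Its mean log2 was 0.57 in sham, 0.80 in MI, 0.85 in FAPI and 0.10 in FapKO hearts. MI minus sham was -0.03 without MI replicate 1, and FAPI minus MI ranged from -0.44 without MI replicate 3 to 0.31.

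Il33 and Il1rl1 are the ligand and receptor of the IL-33 pathway. Il33 (ENSMUSG00000024810.16, chr19:29925114-29960718, plus strand) had the highest level per kilobase of exon of the 10 genes in MI hearts, 14.4 ± 4.45 CPM per kb (SD, n = 4). Its values were 10.4, 9.47 and 15.6 CPM in sham hearts, 24.2, 40.1, 53.3 and 48.9 CPM in MI, 48.8, 27.0, 34.4 and 22.3 CPM in FAPI and 15.8, 21.3, 20.3 and 27.5 CPM in FapKO hearts. The MI and FAPI hearts covered nearly the same range, and the FapKO hearts were all above sham and overlapped the lower end of both. Il33 was higher in MI than in sham hearts by 1.82 on the log2 scale (SE 0.30, edgeR adjusted p = 5.36e-05) and lower in FapKO than in MI hearts (-0.97, SE 0.26, adjusted p = 0.00514), while FAPI against MI gave -0.33 (SE 0.26, adjusted p = 0.353). In FapKO against sham hearts it was higher by 0.85 (SE 0.30, adjusted p = 0.0324), a call that was lost without sham replicate 1 (adjusted p = 0.12), sham replicate 2 (0.129), FapKO replicate 2 (0.0555) or FapKO replicate 4 (0.0896). FAPI exceeded FapKO by 0.64 (SE 0.26, adjusted p = 0.108), or by 0.79 (adjusted p = 0.0467) without FAPI replicate 4.

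Il1rl1 (ENSMUSG00000026069.15, chr1:40429570-40465415, plus strand), which encodes the IL-33 receptor ST2 in membrane and soluble forms that gene counts do not separate, was low in all hearts. Its level was 0.862, 0.522 and 0.689 CPM in sham, 0.774, 0.851, 0.809 and 0.539 in MI, 0.930, 0.438, 0.508 and 0.520 in FAPI and 0.558, 0.579, 0.589 and 0.624 in FapKO hearts, from 8 to 33 counts each. All 4 groups overlapped. The log2 fold change was 0.11 (SE 0.30, edgeR adjusted p = 0.749) for MI against sham, -0.33 (adjusted p = 0.346) for FAPI against MI and -0.35 (adjusted p = 0.27) for FapKO against MI. The sign for MI against sham was negative (-0.06) without sham replicate 2. In MI hearts its level per kilobase, 0.108 ± 0.0202 CPM (SD, n = 4), was about that of Lif (0.101 ± 0.0299). Without the division by length the means were 0.743 CPM for Il1rl1 and 0.437 CPM for Lif.

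Il6 (ENSMUSG00000025746.11, chr5:30013114-30019981, plus strand) was nearly absent from sham hearts, with 2, 10 and 4 counts (0.123, 0.653 and 0.276 CPM). MI hearts had 2.82, 2.73, 3.58 and 1.58 CPM, FAPI hearts 2.14, 1.42, 1.91 and 1.91 CPM and FapKO hearts 1.12, 1.64, 1.03 and 2.34 CPM. All infarcted hearts were above all sham hearts, and the 3 infarcted groups overlapped. The rise after MI was 2.93 on the log2 scale (SE 0.45, edgeR adjusted p = 2.12e-05). Il6 was also higher than in sham in FAPI (2.39, SE 0.46, adjusted p = 0.000345) and FapKO hearts (2.12, SE 0.47, adjusted p = 0.00228). FapKO was lower than MI by edgeR (-0.81, SE 0.30, adjusted p = 0.0313), but the call was lost when any of MI replicates 1, 2 or 3 or FapKO replicates 1, 2 or 3 was left out (adjusted p 0.0501 to 0.101). FAPI against MI gave -0.54 (SE 0.29, adjusted p = 0.17).

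Il11 (ENSMUSG00000004371.14, chr7:4772373-4782859, minus strand), whose product acts on fibroblasts and other stromal cells through Il11ra1 and gp130, was at 0.246, 0.457 and 0.551 CPM in sham hearts. MI hearts had 1.76, 1.37, 1.71 and 2.70 CPM, FAPI hearts 1.41, 1.31, 1.46 and 1.59 CPM and FapKO hearts 0.944, 0.647, 0.626 and 1.29 CPM. Every FapKO heart was below every MI and every FAPI heart and above every sham heart. Il11 was higher in MI than in sham hearts by 2.16 on the log2 scale (SE 0.35, edgeR adjusted p = 4.07e-05) and lower in FapKO than in MI hearts, 2.14-fold (-1.10, SE 0.26, adjusted p = 0.00205). FAPI against MI gave -0.37 (SE 0.24, adjusted p = 0.269) and FAPI against FapKO 0.73 (SE 0.26, adjusted p = 0.0739, or 0.98 with adjusted p = 0.03 without FapKO replicate 4). The excess of FapKO over sham, 1.06 (SE 0.38, adjusted p = 0.0332), was not called without sham replicate 1 (0.165), sham replicate 2 (0.0689), FapKO replicate 1 (0.0604) or FapKO replicate 4 (0.0969), or by limma-voom (0.0922).

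Lif (ENSMUSG00000034394.14, chr11:4257557-4272514, plus strand), a ligand of the Lifr and gp130 pair, was close to the detection limit in the hearts, with 1 to 4 counts in sham, 8 to 18 in MI, 3 to 12 in FAPI and 6 to 11 in FapKO hearts. These were 0.246, 0.261 and 0.0689 CPM, then 0.248, 0.464, 0.498 and 0.539 CPM, 0.310, 0.183, 0.0897 and 0.347 CPM, and 0.258, 0.375, 0.221 and 0.351 CPM. The groups overlapped. MI against sham gave 1.14 on the log2 scale (SE 0.51, edgeR adjusted p = 0.0584) and FAPI against MI -0.89 (SE 0.38, adjusted p = 0.0923). Both passed without MI replicate 1, at 1.34 (adjusted p = 0.0266) and -1.08 (adjusted p = 0.0485). FapKO against MI gave -0.52 (SE 0.38, adjusted p = 0.272).

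Osmr (ENSMUSG00000022146.12, chr15:6813577-6874969, minus strand) varied little within groups, with 4.50, 5.75 and 6.06 CPM in sham, 16.0, 18.9, 19.7 and 18.7 CPM in MI, 17.9, 16.1, 16.7 and 15.1 CPM in FAPI and 11.5, 13.1, 9.51 and 11.6 CPM in FapKO hearts. The FapKO hearts formed a band of their own between sham and the other infarcted hearts, while FAPI and MI hearts overlapped. The rise after MI was 3.37-fold (log2 1.75, SE 0.14, edgeR adjusted p = 1.42e-08). FapKO was 1.61-fold lower than MI (-0.68, SE 0.11, adjusted p = 0.000105), and FAPI was 1.44-fold higher than FapKO (0.53, SE 0.11, adjusted p = 0.0062). FAPI against MI gave -0.16 (SE 0.11, adjusted p = 0.306). With the cardiomyocyte covariate the FapKO difference kept its size but not its call (-0.63, adjusted p = 0.536).

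The IL-1 receptor genes Il1r2, Il1r1 and Il1rl1 are neighbours on chromosome 1, in a row of 6 protein-coding genes on the same strand with Il1rl2 (the IL-36 receptor, chr1:40324610-40367562), Il18r1 (chr1:40465552-40500854) and Il18rap (chr1:40515362-40551705), the receptor chains for IL-18. After MI, 5 of the 6 were higher than in sham. For the 3 genes not yet described the log2 fold changes were 1.64 for Il1rl2 (SE 0.22, edgeR adjusted p = 5.68e-06), 1.72 for Il18r1 (SE 0.61, adjusted p = 0.0189) and 3.05 for Il18rap (SE 0.51, adjusted p = 6.29e-05). Il1rl1, between Il1rl2 and Il18r1, did not pass except under total-count scaling. Il1rl2 was lower in FAPI (-0.53, adjusted p = 0.0248) and in FapKO (-0.58, adjusted p = 0.00908) than in MI hearts, by nearly the amounts of its neighbour Il1r1. Il18rap was lower in FapKO hearts (-1.11, adjusted p = 0.00924), with -0.46 (adjusted p = 0.264) in FAPI hearts. Overlapping genes could add reads where strand was not used in counting, which is not given in the sources used here. The antisense Gm16894 in Il1r2 had at most 23 counts in any library and Gm38070 in Il1r1, on the same strand, at most 53.

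**Figure D4:**
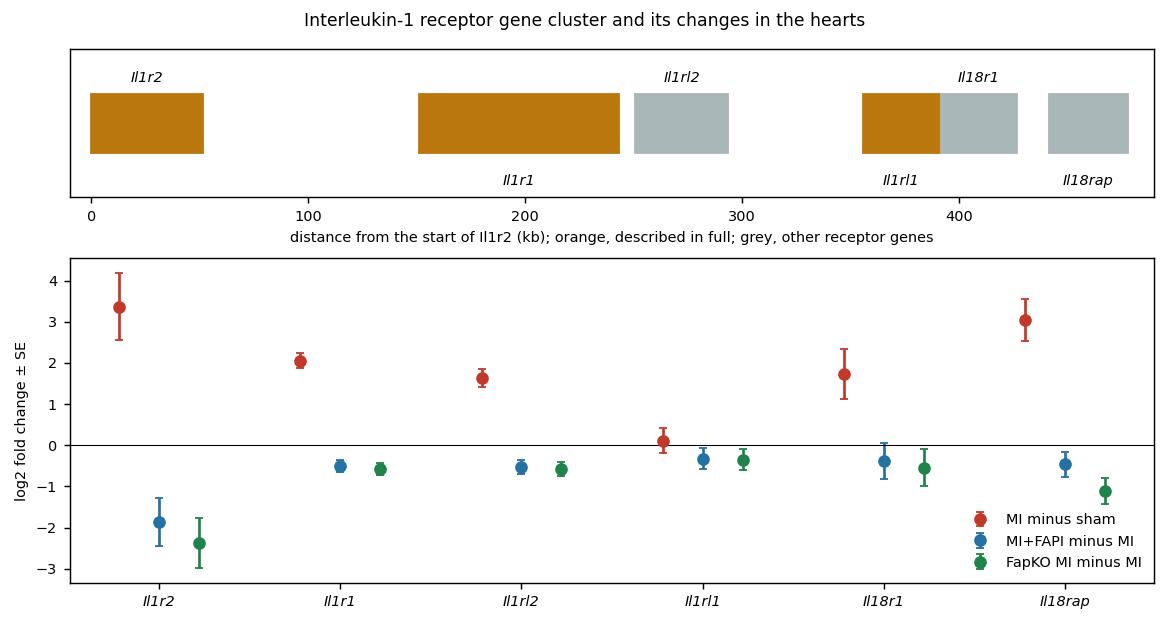
The 6 receptor genes of the cluster drawn to scale by distance from the start of Il1r2 in kb (top), and their log2 fold changes with standard errors for MI minus sham, FAPI minus MI and FapKO minus MI (bottom). The MI points lie above 1.6 for 5 genes and near 0 for Il1rl1, and all FAPI and FapKO points lie below 0.

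The other genes of both families were counted over lists of 87 genes, of which 75 were tested in the hearts. After MI, 50 were higher and 10 lower than in sham. In FAPI against MI hearts 4 were higher and 19 lower, in FapKO against MI hearts 5 were higher and 42 lower, and in FAPI against FapKO hearts 19 were higher and 1 lower (edgeR). Over all genes the shares higher and lower were 37.1% and 32%, 17.9% and 11.9%, 25% and 26%, and 7.05% and 6.12%. Their median log2 fold change was 1.10 after MI, -0.27 for FAPI, -0.59 for FapKO and 0.19 for FAPI against FapKO, beside 0.14, -0.03, -0.08 and 0.02 over all genes. The FAPI total of 23 became 13 without FAPI replicate 2 and 12 without FAPI replicate 4. With the cardiomyocyte covariate 14 passed after MI, 3 in FAPI and 6 in FapKO against MI hearts, where 573, 22 and 90 of all 17064 genes passed.

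Among the partners of IL-1β, Il18, the other cytokine that caspase-1 matures, was at 9.35 ± 1.48 CPM in MI (SD, n = 4) and 2.30 ± 0.198 CPM in sham hearts (n = 3). It was higher after MI by 2.02 on the log2 scale (SE 0.22, edgeR adjusted p = 5.48e-07) and lower in FAPI (-0.55, adjusted p = 0.0238) and FapKO hearts (-1.31, adjusted p = 1.89e-05) than in MI hearts. Il1a, the other IL-1 agonist, had too few counts to be tested. Of the 7 inflammasome and pyroptosis genes, 6 were higher after MI and Pycard, the adaptor ASC, did not pass. Of all genes, 37.1% were called higher there. The DNA sensor Aim2 was higher by 2.38 (SE 0.28, adjusted p = 1.32e-06), the murine caspase-11 gene Casp4 by 1.83 (adjusted p = 1.46e-06) and the pore-forming Gsdmd by 1.29 (adjusted p = 3.76e-07). All 7 were lower in FapKO than in MI hearts, among them Casp1, which encodes caspase-1 (-0.85, adjusted p = 0.000437), and 1 of the 7, Gsdmd, was lower in FAPI hearts (-0.46, adjusted p = 0.00725). Over all genes, 26% were called lower in FapKO and 11.9% in FAPI against MI hearts.

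Of the 17 genes of IL-1 receptor signalling and feedback, 10 were higher and 3 lower after MI, where 69.1% of all genes were called. The adaptor Myd88 was at 28.7 ± 1.70 CPM in MI hearts, 21.3 ± 3.43 in FAPI and 16.4 ± 1.66 in FapKO hearts (SD, n = 4 each). It was lower in FAPI (-0.43, edgeR adjusted p = 0.00797) and FapKO hearts (-0.81, adjusted p = 2.17e-05) than in MI hearts. The co-receptor Il1rap was higher after MI (1.34, SE 0.20, adjusted p = 1.45e-05) and lower in FapKO hearts (-0.52, adjusted p = 0.013), with -0.33 in FAPI hearts (adjusted p = 0.129). Nfkbiz, an inducible NF-kB cofactor, was higher after MI by 1.86 (adjusted p = 1.97e-08), lower in FapKO than in MI hearts (-0.79, adjusted p = 4.18e-05) and higher in FAPI than in FapKO hearts (0.55, adjusted p = 0.00664).

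On the IL-6 side, Osm, the ligand of Osmr and largely a leukocyte product, was at 1.11 ± 0.394 CPM in MI hearts, 0.707 ± 0.260 in FAPI and 0.343 ± 0.134 in FapKO hearts (SD, n = 4 each). It was higher after MI (2.07, edgeR adjusted p = 0.00135) and lower in FapKO hearts (-1.66, adjusted p = 0.00151), with -0.65 in FAPI hearts (adjusted p = 0.156). Cardiotrophin-1 (Ctf1), a cardiomyocyte cytokine, was lower after MI (-1.47, adjusted p = 1.18e-05). Among receptors, Il6ra was higher after MI (1.58, adjusted p = 1.9e-06) and lower in both FAPI (-0.61, adjusted p = 0.0107) and FapKO hearts (-1.18, adjusted p = 2.69e-05). The shared chain Il6st was higher after MI (0.89, adjusted p = 2.67e-06) and lower in FAPI (-0.34, adjusted p = 0.0166) and FapKO hearts (-0.37, adjusted p = 0.00561), Lifr was lower after MI (-0.82, adjusted p = 3.55e-05), and the IL-11 receptor Il11ra1 was at 107 ± 14.2 CPM in MI hearts with 0.13 against sham (adjusted p = 0.322).

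Of 9 JAK and STAT3 genes, 5 were higher and 2 lower after MI, where 69.1% of all genes were called in either direction. The feedback inhibitor Socs3 was higher after MI by 1.53 (edgeR adjusted p = 3.16e-05) and lower in FapKO than in MI hearts (3.66 ± 0.751 against 7.30 ± 2.14 CPM, SD, n = 4 each, adjusted p = 0.000584). In FAPI hearts its difference from MI was 0.14 (adjusted p = 0.608), and FAPI exceeded FapKO hearts by 1.14 (adjusted p = 0.00173). Cish, a feedback inhibitor of STAT5 signals, moved the other way, at -3.31 after MI (adjusted p = 2.6e-08), 1.38 in FAPI (adjusted p = 0.000964) and 1.81 in FapKO against MI hearts (adjusted p = 2.64e-05). Of 23 genes known to respond to these cytokines that were tested, 16 were higher and 2, Cebpb and Nos2, lower after MI. Of all genes, 37.1% were called higher and 32% lower after MI, 25% and 26% in FapKO and 17.9% and 11.9% in FAPI against MI hearts. In FapKO against MI hearts 12 of the 23 were lower and none higher. In FAPI against MI hearts 9 were lower and none higher, including the acute-phase gene Hp (-3.37, adjusted p = 0.000278) and the pentraxin Ptx3 (-0.96, adjusted p = 0.000367). The 6 adipocyte markers summed to 142 to 278 CPM in MI, 15.1 to 51.8 in FAPI and 28.3 to 172 in FapKO hearts. The part of adipocytes and neutrophils in the changes of these genes was not tested. Cebpd, a transcription factor gene induced by IL-6, was at 184 ± 28.4 CPM in MI, 188 ± 23.9 in FAPI and 69.5 ± 14.6 in FapKO hearts (SD, n = 4 each), higher in FAPI than in FapKO by 1.44 (SE 0.15, adjusted p = 1.85e-05).

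How the 10 genes varied from heart to heart within groups was described by the correlation of deviations from group means over the 15 hearts, which share library depth and cell makeup. Il1b and Il1r2 had the highest correlation of any of the pairs, r = 0.905, and 0.809 over the 13 hearts without MI replicate 3 and FAPI replicate 3. Il1r1 and Il33 followed with 0.741 (0.773 without those 2 hearts), and the lowest was Il1rn with Lif, -0.468 (-0.327). Among tested genes of at least 5 CPM, the gene most like Il1b and Il1r2 was in both cases Prg4, which encodes the lubricating proteoglycan lubricin (r = 0.926 and 0.943, and 0.820 and 0.826 without the 2 hearts farthest from the median). Prg4 was at 47.9 CPM in MI replicate 3 and at 7.24 to 13.3 CPM in the other MI hearts. Il33 was most like Saa3 (0.894), an acute-phase serum amyloid gene, and Slpi (0.893), a secreted protease inhibitor. Il1r1 was most like Chil3 (0.914), which encodes a chitinase-like protein of myeloid cells, and Il1rn most like Vma21 (0.928). Osmr was most like Kif13b (0.912), followed by Elf1 (0.902) and Il17ra (0.886), the IL-17 receptor. Il6, Il11, Lif and Il1rl1, with fewer counts, had B4galt1 (0.855), Plaa (0.850), Cyp4b1 (0.800) and Tnks1bp1 (0.875).

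In the cultured fibroblasts, 8 of the 10 genes could be tested. Il1r1, Il1r2, Il33 and Osmr were higher in co-cultured fibroblasts and Il6 and Lif lower, while 30.3% of the 12293 genes tested were called higher and 29.5% lower, 59.8% in all (edgeR). The groups did not overlap for 7 of the 8, all but Il1rn, and 67% of all genes did not overlap. Il1b and Il1rl1 were essentially absent: Il1b had 1 count in all 6 libraries together, and Il1rl1 had 1, 0 and 0 counts in co-culture and 6, 0 and 1 alone. A count of 0 allows a level of up to 3 counts, which was 0.524 to 0.727 CPM in the co-culture and 0.161 to 0.239 CPM in the libraries cultured alone, for counting error only.

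Il33 had the largest difference of the 8, with 4.12, 11.2 and 12.1 CPM in co-cultured fibroblasts against 0.590, 0.716 and 0.268 CPM alone. The groups were far apart, 17.9-fold (log2 4.16, SE 0.48, edgeR adjusted p = 0.000106). Il1r1 was at 22.3, 29.1 and 28.8 CPM in co-culture and 6.78, 7.09 and 9.93 CPM alone, higher by 1.75 (SE 0.20, adjusted p = 8.6e-05). Il1r2 was at 5.09, 2.24 and 1.75 CPM against 0.649, 0.876 and 0.591 CPM, higher by 2.06 (SE 0.45, adjusted p = 0.00402) on 10 to 21 counts per library. Both receptors were above every library cultured alone in all 3 co-culture libraries. Il1rn, at 2.67, 5.59 and 1.57 CPM against 1.59, 2.31 and 1.88 CPM, overlapped (0.74, SE 0.43, adjusted p = 0.164), and passed only without co-culture replicate 3 (1.12, adjusted p = 0.0483).

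Of the 3 IL-6 family ligands among the 10 genes, Lif and Il6 were called lower in co-culture and Il11 did not pass. Lif, barely detected in hearts, was at 5.84, 7.48 and 5.85 CPM alone and 3.39, 1.34 and 3.14 CPM in co-culture, lower by edgeR (-1.27, SE 0.31, adjusted p = 0.00697). Il6 was at 19.0, 15.5 and 19.0 CPM alone and 12.6, 15.4 and 11.4 CPM in co-culture, a narrow separation (-0.45, SE 0.17, adjusted p = 0.0449). That call was lost without co-culture replicate 1 (adjusted p = 0.105) or 3 (0.154), without culture replicate 1 (0.11) or 3 (0.107), and with DESeq2 (0.0813), limma-voom (0.0505), relative log expression size factors (0.051), the replicate block (0.0868) or libraries thinned to the smallest total (0.112). Il11 was at 1.12, 1.51 and 1.40 CPM alone and 0.970, 1.12 and 0.349 CPM in co-culture, from 2 to 26 counts (-0.78, SE 0.44, adjusted p = 0.16). Osmr was at 24.7, 30.7 and 22.8 CPM alone and 31.3, 45.6 and 50.6 CPM in co-culture, higher by 0.71 (SE 0.20, adjusted p = 0.0117), a call lost without co-culture replicate 3 (0.56, adjusted p = 0.0614) and under total-count scaling (0.39, adjusted p = 0.108). Per kilobase of exon, the ligand Il6 ranked first of the 10 genes in both cultures, at 7.34 ± 0.820 CPM alone and 5.41 ± 0.859 in co-culture (SD, n = 3), where Il33 had been first in the MI hearts. These are ranks within each experiment, which were normalised apart. In CPM with no division by length, Osmr was first in both cultures, at 26.05 alone and 42.51 in co-culture. Il6 was at 17.82 and 13.13 CPM. How the UMI barcodes were used in counting is not given in the sources used here. Whether the division by length is apt is therefore not known.

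**Figure D5:**
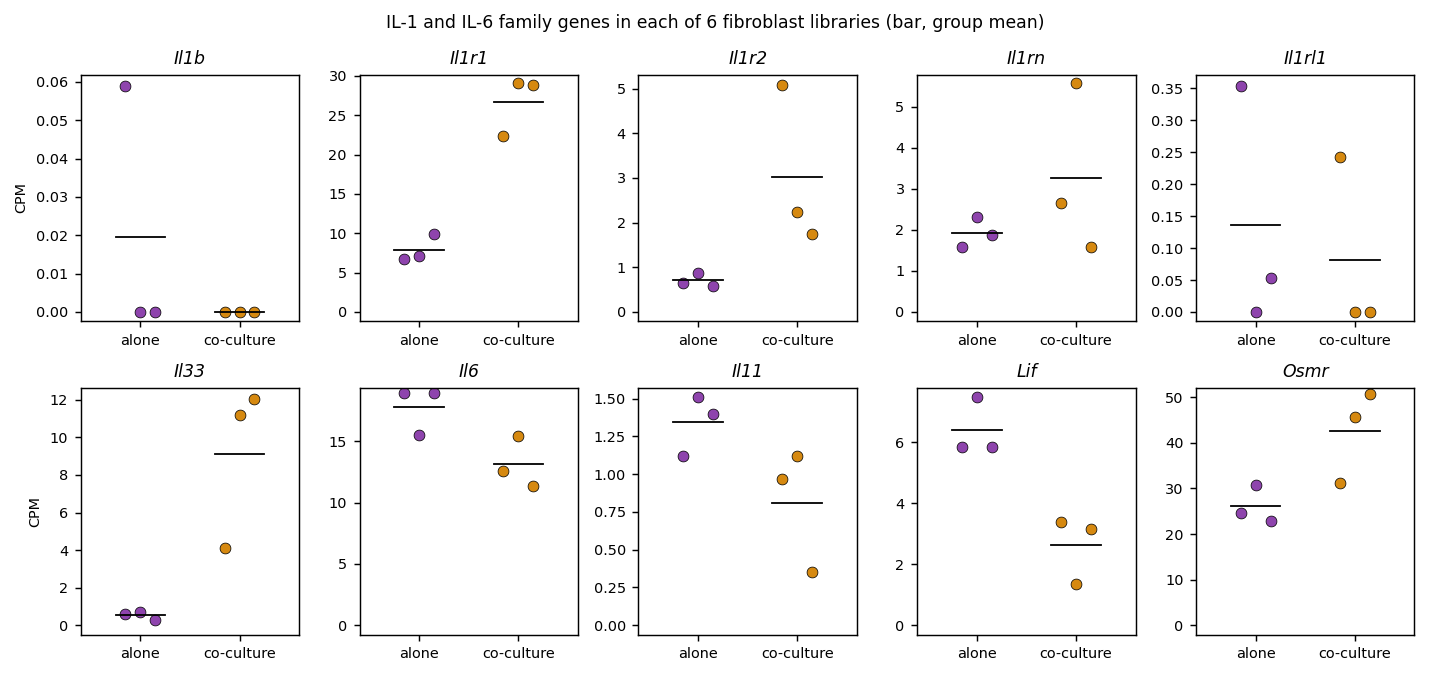
CPM of the 10 genes in each fibroblast library, cultured alone or in co-culture, with a bar at the group mean. Il33, Il1r1 and Il1r2 lie higher in all 3 co-culture libraries (Il33 4.12 to 12.1 against 0.268 to 0.716 CPM), Lif lies lower (1.34 to 3.39 against 5.84 to 7.48 CPM), and Il1b and Il1rl1 lie at or near 0 in both.

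Of the other family genes, 64 were tested in the fibroblasts, of which 35 were higher and 9 lower in co-culture. Of all 12293 genes tested there, 30.3% were called higher and 29.5% lower, 59.8% in all. Genes that respond to IL-1 or IL-6 cytokines made up 16 of those 35 (of 21 tested, with Ptx3 and Cxcl5 lower), with a median log2 fold change of 2.23 beside -0.06 over all genes. Junb was higher by 3.02 (SE 0.12, edgeR adjusted p = 8.88e-07), Cebpd by 2.19 (adjusted p = 1.32e-06) and Lcn2, a secreted siderophore-binding protein, by 4.29 (adjusted p = 1.49e-06). Socs3 was at 63.0 ± 4.57 CPM in co-culture and 7.62 ± 1.22 CPM alone (SD, n = 3 each). Of the receptors' partners, Il11ra1 was at 548 ± 9.34 CPM against 144 ± 8.85 CPM (1.93, adjusted p = 1.71e-06), Il6st was higher by 0.51 (adjusted p = 0.00862) and Il1rap, the co-receptor of Il1r1, was lower (-0.77, adjusted p = 0.00187). Of the IL-6 family ligands tested, Clcf1 (-1.69, adjusted p = 0.000577) and Ctf2 (-1.30, adjusted p = 0.00972) were lower and none was higher. Markers of other cells differed too: the 5 leukocyte markers summed to 15.2 to 17.7 CPM in the CD45-negative sorted cells and 55.8 to 65.8 CPM in the unsorted cultures, the 12 macrophage markers to 398 to 517 against 915 to 1465 CPM, and the 8 fibroblast markers to 16710 to 17180 against 4409 to 10710 CPM. The 7 activated-fibroblast markers summed to 959 to 1150 CPM in co-culture and 2782 to 3449 CPM alone. The part of these differences in the cytokine genes was not tested.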

How the data were processed

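RNA was measured in 21 mouse libraries, 15 hearts and 6 fibroblast cultures. The deposited values are whole-number counts per gene, made by the authors with STAR and HTSeq on mm10, per the submitters' processing notes, and, per the labels' protocols, from UMI-barcoded Smart-seq2 libraries (tool versions not given in the sources used here). The 15 hearts entered 1 edgeR 4.0.16 quasi-likelihood fit (R 4.3.3, TMM, filterByExpr, group as the only term) and the 6 fibroblast libraries another, giving 7 comparisons. P-values were adjusted by Benjamini-Hochberg over all genes tested, with 0.05 as the threshold, and standard errors are approximate, the fold change over the root of its F. Ratios had 0.5 added to each count. Symbols for 53706 of 53801 IDs, coordinates and exon lengths came from GENCODE M21 (GRCm38), promoter sequences from RefSeq GRCm38.p6. Every one of the 10 genes is named in every comparison; other family genes are named as the up to 3 of smallest p per list and comparison, or as partners, and like genes as the 3 of highest correlation. Neutrophil genes and the exceptions in small counts were named after their values were seen. These genes and lists were chosen with earlier results of these data known. Alternatives were RLE and total-count scaling, other filters, DESeq2 1.42.0, limma-voom 3.58.1, a replicate block, fits of the compared groups alone, a cardiomyocyte covariate and each library left out. The fit was tested on simulated data. A table of 6 columns that matched no sample's labels was not used here.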

Additional observations from a re-analysis of the deposited data

Results flagged for a closer look

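Of 36 groups of 4 hearts examined (10 genes and 2 ratios in 3 infarcted groups), 5 had a heart whose distance to its nearest neighbour exceeded the 95% limit of Dixon's test, where chance gives about 1 in 20. Il1b was at 20.4 CPM in MI replicate 3, and the other MI hearts were at 1.58 to 3.51 CPM. Il1r2 was at 16.4 CPM in the same heart and at 1.89 to 2.35 CPM in the others. The log2 ratio of Il1r2 to Il1r1 counts was accordingly 0.49 there, against -2.46 to -2.42. Il1rn was at 17.3 CPM in FAPI replicate 3 and at 2.38 to 4.79 CPM in the other FAPI hearts. Il1rl1 was at 0.930 CPM in FAPI replicate 1, on 27 counts, and at 0.438 to 0.520 CPM in the others.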

How the results depend on the processing

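With each library left out in turn, the number of the 10 genes called was 8 to 9 for MI against sham, 6 throughout for FAPI against sham, 3 to 5 for FapKO against sham, 0 to 3 for FAPI against MI, 6 to 8 for FapKO against MI, 1 to 3 for FAPI against FapKO and 5 to 6 in the fibroblasts. The other family genes called numbered 58 to 61, 47 to 57, 25 to 35, 12 to 23, 42 to 49, 14 to 24 and 41 to 49. The log2 ratio of Il1rn to Il1b ranged from -0.025 to 0.72 for MI against sham, -0.435 to 0.31 for FAPI against MI and -1.187 to -0.413 for FapKO against MI, and that of Il1r2 to Il1r1 from -0.022 to 1.049, -0.92 to 0.064 and -1.385 to -0.401. Under total-count scaling, 9 of the 10 genes and 58 other family genes were called for FAPI against MI and 55 other family genes for FapKO against sham. DESeq2, limma-voom, the fit of the compared groups alone, the cardiomyocyte covariate and leaving out both replicate 3 libraries (chosen after seeing the data) each called 1 gene for FAPI against MI, where DESeq2 gave Il1r2 no adjusted p. For FAPI against FapKO, limma-voom, the covariate and leaving out both libraries called 1. With the covariate, 3 genes were called for MI against sham and 2 for FapKO against MI, and 14, 3 and 6 other family genes for MI against sham, FAPI against MI and FapKO against MI, where 573, 22 and 90 of all 17064 genes were called. Some fold changes stayed about as large, as for Il11 (2.16 with and without the covariate after MI, -1.09 against -1.10 in FapKO). That of Il1r1 did not (-0.10 against -0.58 in FapKO). The log2 fold changes of Il1b ranged over all settings from 1.52 to 7.85 after MI, and from -5.28 to -0.32 in FapKO against MI hearts. Those of Il1r2 ranged from 1.94 to 7.76 and from -5.55 to -0.95. The cause was not tested.

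Signs changed for no called value. They changed for Il1rl1 under total-count scaling (FAPI against sham 0.465, FapKO against sham 0.302), limma-voom (FAPI against FapKO -0.047), the replicate block (-0.005) and the covariate (FAPI against FapKO -0.065, MI against sham -0.359, FapKO against MI 0.006), and for Il1r1 with the covariate (FAPI against FapKO -0.042). Leaving out single libraries gave ranges that cross 0 for Il1b (-1.65 to 0.296) and Il1rn (-1.125 to 0.364) in FAPI against MI, Il1rl1 in MI against sham (-0.058 to 0.306) and FAPI against FapKO (-0.259 to 0.126), Il1r1 in FAPI against FapKO (-0.008 to 0.197) and Lif in FAPI against sham (-0.121 to 0.531). Il1b in FAPI against MI was 0.111 without both replicate 3 libraries.

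The labels gave no pairing by replicate number. Deviations from group means of same-numbered hearts correlated at -0.294 to 0.322 (median 0.069, 7 of 21 pairs over 0.1). Those of same-numbered fibroblast libraries correlated at -0.183 to 0.064. With so few libraries in a group, these values cannot exclude a pairing. With the replicate block 8, 8, 5, 2, 8 and 3 of the 10 genes were called for MI, FAPI and FapKO against sham, FAPI and FapKO against MI, and FAPI against FapKO, and 5 in the fibroblasts; other family genes numbered 60, 56, 38, 23, 48, 20 and 44. Depth limits Lif, Il6 and Il11 in sham hearts, at 1 to 10 counts, and Il1b and Il1rl1 in the fibroblasts.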
